A study of Mus musculus with 2 samples.

Results

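The genes described here encode transporters that move organic anions, urate, organic cations and carnitine across the membranes of kidney tubule cells. They are 9 genes (Slc22a6, Slc22a8, Slc22a7, Slc22a12, Slc22a13, Slc17a3, Slc22a2, Slc47a1 and Slc22a5) of the 21755 protein-coding genes of the 19 autosomes and X. They were listed by name, and each was read over its GENCODE M21 body and 10 kb of flank at both ends. The study mapped accessible DNA in mouse kidney tissue by DNase-seq, in which DNase I cuts open chromatin and the cut ends are sequenced. A peak is a stretch of accessible DNA, and a footprint a short run of bases in it that was cut less. There was 1 group of 2 libraries, numbered as biological replicates 1 and 2, both from female B6CASTF1/J mice at 8 to 10 months of age, with no treatment given in the labels. B6CASTF1/J is the first-generation cross of C57BL/6J and CAST/EiJ, and how well reads of the CAST/EiJ chromosomes mapped to the reference was not tested.

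Proximal tubule cells secrete drugs and metabolic waste in a pair of steps. Transporters of the basolateral membrane (such as those of Slc22a6 and Slc22a8 for anions and of Slc22a2 for cations) take compounds up from the blood, and transporters of the apical membrane, such as Slc47a1, pass them on to the urine. Some apical members work the other way and recover their substrate, as the urate exchanger encoded by Slc22a12 and the carnitine carrier encoded by Slc22a5 do.

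With 1 group and 2 libraries no test was possible. Values are the deposited peak signal of each library, with the mean ± SD (n = 2). The labels give both tissue samples 1 shared donor entry and do not say whether they came from separate animals, so this spread may be partly technical. In bulk tissue, fewer cells of a type and a less open site in each cell cannot be told apart. Replicates 1 and 2 held 137083 and 125000 peaks, with 316362 and 312966 footprints. Overlapping peaks of both made 96746 shared regions, whose log2 ratio of replicate 1 to replicate 2 had a median of 0.01 and an SD of 0.63. Signals were whole multiples of a step of 0.00827 in replicate 1 and 0.00834 in replicate 2, and regions of these genes were 55 to 2740 steps high. All 8 proximal tubule markers examined had an open promoter, Lrp2 and Miox among them. So did 3 of 6 hepatocyte, 0 of 6 immune and 2 of 4 striated muscle genes, beside 64.2% of all protein-coding genes (open is defined below). Median signals of the open promoters were 2.70 for proximal tubule, 0.776 for hepatocyte and 1.27 for striated muscle genes.

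The sequences below are examples from the regions described in the text and were read from the GRCm38.p6 genome (NCBI RefSeq). Each is given 5′ to 3′ on the strand of its gene, and capitals mark the joined span of footprints of the 2 libraries that overlapped, so a base in capitals may lie in the footprint of 1 library alone. The first 3 come from promoters. They show the dense footprints of the strongest promoter (Slc22a5), paired footprints on GC-rich words (Slc47a1, without the annotated UTR stretches) and a footprint on an HNF1 word in exon 1 (Slc17a3). The next 4 lie away from GENCODE start sites. They are the strongest region of the Slc22a6 and Slc22a8 pair (its central 300 bases), a region of Slc22a8 at a further annotated start, the strongest region upstream of Slc22a12, and the region beyond Slc22a6 with an HNF4 word. The Slc17a3 footprint and the last 3 regions were chosen after their values were seen.
Slc22a5 promoter, chr11:53891801-53892060, minus strand: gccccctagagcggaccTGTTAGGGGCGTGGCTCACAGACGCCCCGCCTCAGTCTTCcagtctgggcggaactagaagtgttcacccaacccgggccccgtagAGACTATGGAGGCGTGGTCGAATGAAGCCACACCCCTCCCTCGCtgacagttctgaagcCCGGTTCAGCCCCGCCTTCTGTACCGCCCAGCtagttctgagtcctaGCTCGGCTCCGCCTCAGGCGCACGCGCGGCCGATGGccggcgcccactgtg
Slc47a1 promoter, chr11:61378082-61378178, minus strand: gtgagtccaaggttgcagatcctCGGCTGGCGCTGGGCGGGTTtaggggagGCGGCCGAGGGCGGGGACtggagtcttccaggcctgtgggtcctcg
Slc17a3 promoter footprint, chr13:23839540-23839567, plus strand: TCAGCCTGTCATTAATGATTAATAATTG
Slc22a6 and Slc22a8 pair, chr19:8605101-8605400, plus strand: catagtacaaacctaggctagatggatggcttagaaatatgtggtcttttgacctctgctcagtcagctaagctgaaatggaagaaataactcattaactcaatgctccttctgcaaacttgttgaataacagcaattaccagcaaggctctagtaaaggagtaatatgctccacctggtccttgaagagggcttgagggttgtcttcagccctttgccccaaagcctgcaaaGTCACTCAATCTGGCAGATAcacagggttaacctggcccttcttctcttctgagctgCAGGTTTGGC
Slc22a8 second start, chr19:8592941-8593211, plus strand: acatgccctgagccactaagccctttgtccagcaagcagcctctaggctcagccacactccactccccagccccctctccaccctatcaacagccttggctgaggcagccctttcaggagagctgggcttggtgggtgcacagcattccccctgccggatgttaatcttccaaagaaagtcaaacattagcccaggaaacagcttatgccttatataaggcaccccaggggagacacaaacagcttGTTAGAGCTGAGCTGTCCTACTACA
Slc22a12 upstream, chr19:6546181-6546420, minus strand: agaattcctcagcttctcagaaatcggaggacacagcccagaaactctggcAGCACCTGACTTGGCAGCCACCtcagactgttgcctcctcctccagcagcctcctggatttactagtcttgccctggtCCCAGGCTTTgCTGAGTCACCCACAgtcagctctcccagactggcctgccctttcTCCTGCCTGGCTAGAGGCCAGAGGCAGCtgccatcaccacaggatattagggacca
Slc22a6 downstream, chr19:8630341-8630600, plus strand: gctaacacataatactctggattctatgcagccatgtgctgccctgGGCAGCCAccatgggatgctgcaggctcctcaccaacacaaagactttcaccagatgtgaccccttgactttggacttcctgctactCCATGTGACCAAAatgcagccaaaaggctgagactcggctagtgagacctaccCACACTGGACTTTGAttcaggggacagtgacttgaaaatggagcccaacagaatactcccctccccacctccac

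**Figure D1:**
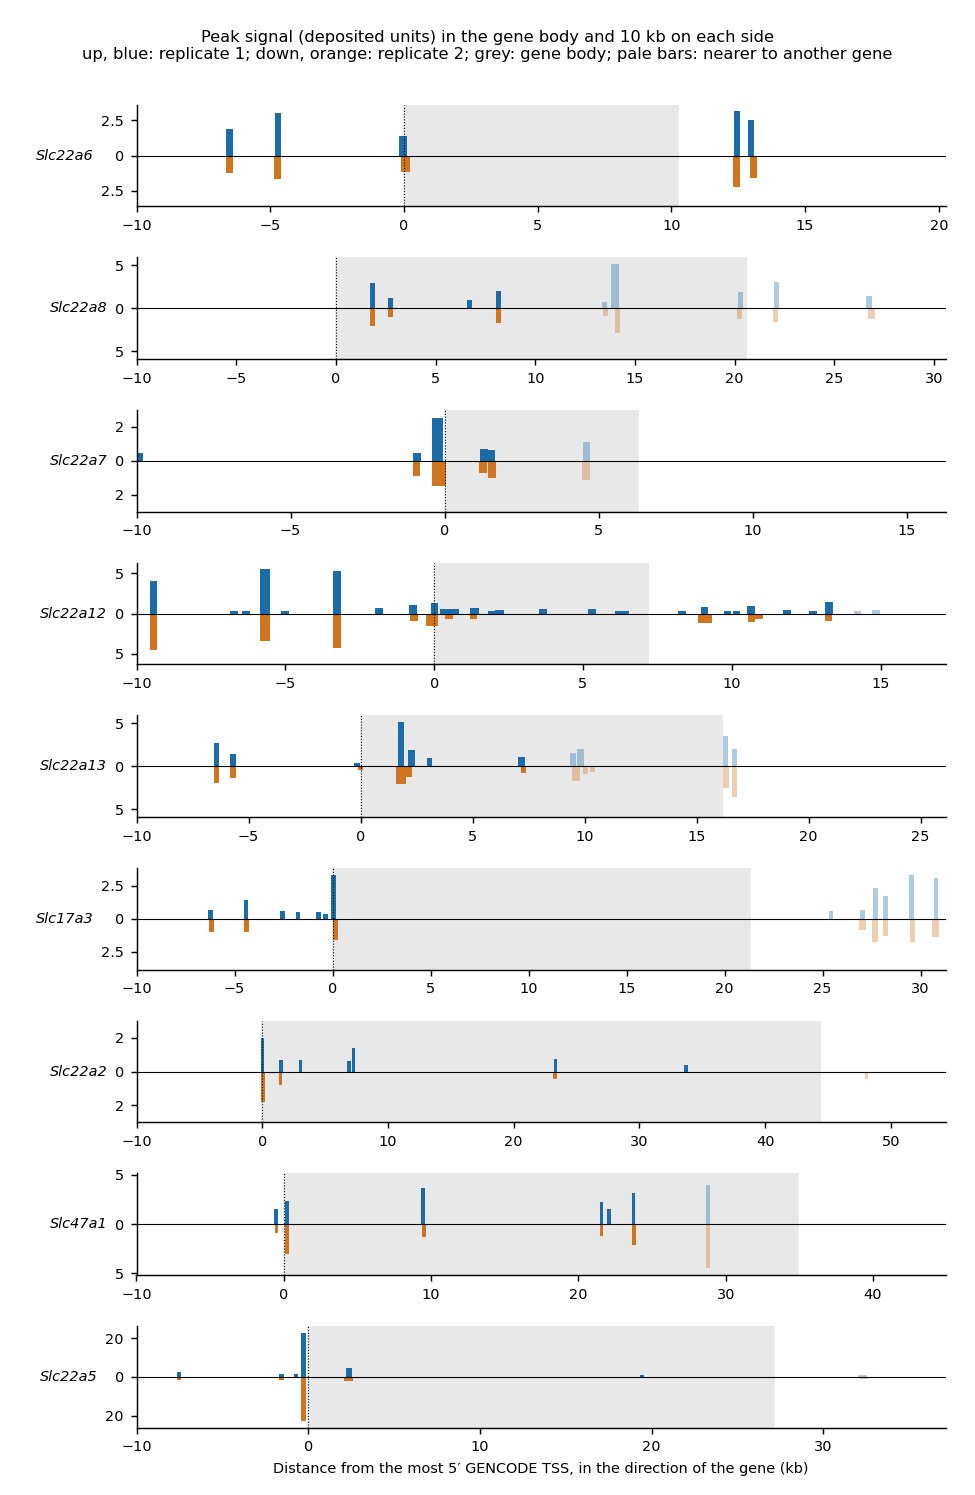
Peak signal of both libraries over the bodies of the 9 genes with 10 kb flanks, in kb from the most 5′ GENCODE start and in the direction of the gene. Bars up are replicate 1 and bars down are replicate 2, in deposited signal units on an axis scaled to each gene, and pale bars lie nearer to the start of another gene. Slc22a5 has 1 dominant peak at its promoter, Slc22a6 and Slc22a12 have higher peaks away from theirs, and Slc22a8 has none at its start.

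A promoter was called open where a shared region overlapped the 500 bases on either side of any GENCODE start of the gene. Promoters of 7 of the 9 genes were open, beside 64.2% of all protein-coding genes. The exceptions were Slc22a8, which encodes the anion carrier OAT3, and Slc22a13, which encodes the urate and nicotinate carrier OAT10. CpG-poor promoters, with an observed over expected CpG ratio under 0.6, belonged to 8 of the 9 genes and to 53.7% of all genes. Of these 8, 6 were open, beside 39.8% of all CpG-poor genes. The median CpG ratio was 0.222 over the 9 genes and 0.558 over all genes. The 7 open promoters had a median signal of 1.98, against 4.75 over all open promoters and 2.64 over open CpG-poor ones.

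Slc22a5 had by far the strongest promoter, with a signal of 22.6 in replicate 1 and 22.8 in replicate 2. It exceeded 99.3% of all open promoters. The other 6 followed at means between 1.29 and 2.70, in the order Slc47a1, Slc17a3, Slc22a7, Slc22a2, Slc22a12 and Slc22a6, and exceeded between 15.6% and 31.3% of open promoters. Neighbours in this order overlapped in their range over the 2 libraries, except that Slc22a5 lay above Slc47a1 and Slc22a2 above Slc22a12 in both.

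**Figure D2:**
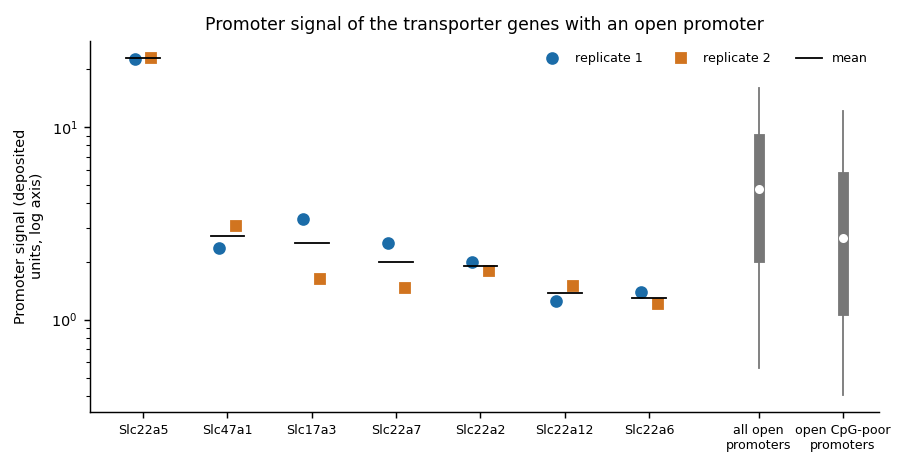
Promoter signal (deposited units, log axis) of the 7 transporter genes with an open promoter, with circles for replicate 1, squares for replicate 2 and a line at their mean. Grey boxes span the 25th to 75th percentile of all open promoters and of open CpG-poor promoters, with the 5th to 95th percentile as a thin line and the median as a white dot. Both Slc22a5 libraries lie above these thin lines, while the other 6 genes lie between 1.20 and 3.34.

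Slc22a6 encodes OAT1, the basolateral exchanger that takes up p-aminohippurate and many anionic drugs. Its gene lies at chr19:8618039-8628299 on the plus strand. The promoter region, chr19:8617841-8618270, spans the start and part of exon 1. It had a signal of 1.39 in replicate 1 and 1.20 in replicate 2 (1.29 ± 0.133). It held no footprint of both libraries and was missing from the shorter peak list of replicate 2. Higher signal lay elsewhere, in 5 of the 6 other regions given to the gene. Of these 6, 4 lay in its own window and the others only in that of Slc22a8. Beyond the 3′ end, chr19:8630341-8630600 had 3.13 in replicate 1 and 2.22 in replicate 2 (2.68 ± 0.648). This region held 3 footprints of both libraries, and the last of them, chr19:8630527-8630541, covers the HNF4 word CAAAGTCCA on the minus strand. Close to it, chr19:8630901-8631220 had 2.54 and 1.56 (2.05 ± 0.692), with 1 such footprint. Upstream, chr19:8613181-8613460 had 2.99 and 1.66 (2.33 ± 0.943), with none. In each region whose values are given here, replicate 1 was the higher library.

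Slc22a8 (chr19:8591254-8611835, plus strand) encodes OAT3, a basolateral carrier with a wide range of anionic substrates. In the 500 bases around its 2 GENCODE starts neither library had a peak, nor any base listed at a false discovery rate (FDR) of 0.05 or less, which 65.2% of genes had in both libraries. Its strongest region of its own, chr19:8592941-8593220, lies inside the gene, 1652 bases from the nearer GENCODE start. This region had 2.93 in replicate 1 and 2.09 in replicate 2 (2.51 ± 0.590), and its lowest FDR was 2.88e-15 in replicate 1 and 2.49e-07 in replicate 2. A second curated RefSeq start, at base 8593182 and 1893 bases from the nearest GENCODE start, falls inside it. In the sequence printed above, this start lies just before the footprint, and TATAA stands 20 to 40 bases before the start. That word was found at this place in 3.31% of the 32851 RefSeq promoters and in none of the other 6 transporter genes with a RefSeq promoter sequence (Slc22a6, Slc22a12, Slc22a13, Slc17a3, Slc22a2 and Slc22a5). With curated RefSeq starts added to the GENCODE ones, a choice made after the data were seen, 8 of the 9 promoters were open, Slc22a8 among them at 2.51. Intron 3 held another region, chr19:8599321-8599520, with 2.06 and 1.69 (1.88 ± 0.259). A weaker one at exon 3, chr19:8593866-8594140, had 1.17 and 1.01 (1.09 ± 0.111).

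The 2 anion carriers are neighbours, with Slc22a8 upstream of Slc22a6 on the same strand, and regions between them went to the nearer GENCODE start. The strongest region of the pair, chr19:8605041-8605460, overlaps exon 5 and intron 4 of Slc22a8. It had 5.15 in replicate 1 and 2.83 in replicate 2 (3.99 ± 1.64), which is 3.08 times the promoter mean of Slc22a6. Its edge lies 12579 bases from the start of Slc22a6 and 13752 from that of Slc22a8, so it was given to Slc22a6. With curated RefSeq starts the distances are 12536 to Slc22a6 and 11859 to Slc22a8, and the nearer gene is Slc22a8. Its gene thus depends on the annotation, and signal alone does not assign it. A weak neighbour, chr19:8604641-8604839, had 0.752 and 0.867 (0.810 ± 0.0811), and chr19:8611418-8611620, in the last exon of Slc22a8, had 1.89 and 1.24 (1.57 ± 0.460). By the curated RefSeq starts the weak neighbour is nearer to Slc22a8 too. Counts given for Slc22a6 follow the GENCODE starts and hold both it and the strongest region.

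**Figure D3:**
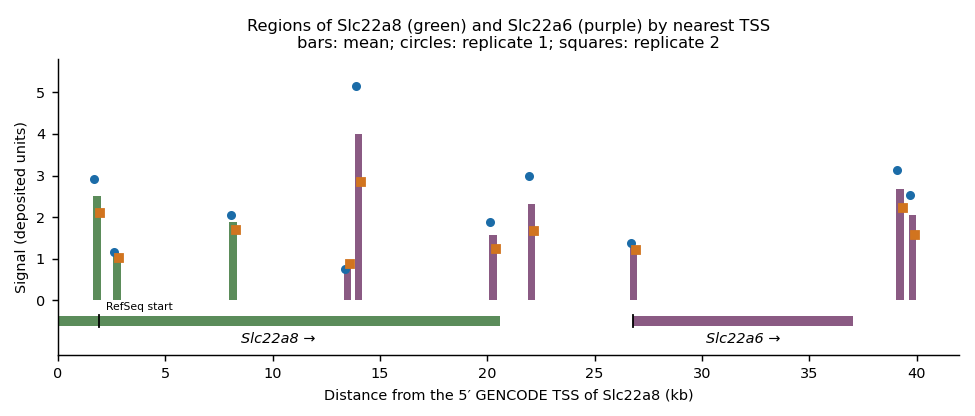
Shared regions around Slc22a8 and Slc22a6, in kb from the 5′ GENCODE start of Slc22a8, with the signal of replicate 1 (circles), of replicate 2 (squares) and their mean (bars, deposited units). Bars are coloured by the gene with the nearest GENCODE start, and ticks on the gene bodies mark the second RefSeq start of Slc22a8 and the start of Slc22a6. The highest bar, at 3.99, lies within Slc22a8 and is nearer to the GENCODE start of Slc22a6.

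Slc22a7 encodes OAT2, a carrier of organic anions, at chr17:46432183-46438457 on the minus strand. Unlike the pair above, its accessibility was gathered at the start. The promoter region chr17:46438401-46438860 had 2.51 in replicate 1 and 1.46 in replicate 2 (1.98 ± 0.740), with 2 footprints of both libraries. A second region in the promoter windows, chr17:46437061-46437310, was near-equal at 0.695 and 0.717 (0.706 ± 0.0159). The 2 regions outside the windows were weaker than the main one and higher in replicate 2. At exon 4, chr17:46436813-46437040 had 0.653 in replicate 1 and 1.03 in replicate 2, and upstream chr17:46439275-46439460 had 0.480 and 0.867. A region in exon 7, chr17:46433741-46433980 with 1.10 ± 0.0183, was nearer to the start of Crip3.

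Slc22a12 encodes URAT1, the apical exchanger that takes urate back from the tubule fluid, and lies at chr19:6535845-6543032 on the minus strand. Its promoter region chr19:6542901-6543300 had 1.25 in replicate 1 and 1.49 in replicate 2 (1.37 ± 0.172). Further regions at internal starts, chr19:6542201-6542840 and chr19:6541541-6541820, had means of 0.615 and 0.685. The 3 strongest regions lay upstream, 3149, 5509 and 9309 bases from the start. By mean signal they were the strongest outside promoters over all 9 genes. In replicate 1 alone, the furthest of them (4.09) lay below regions given to Slc22a6 (5.15), Slc22a13 (5.13) and Slc22a5 (4.49). The first, chr19:6546181-6546420, had 5.25 and 4.27 (4.76 ± 0.694), which is 3.47 times the promoter mean. At chr19:6548541-6548880 the signal was 5.50 in replicate 1 and 3.44 in replicate 2 (4.47 ± 1.45). At chr19:6552341-6552580 it was 4.09 and 4.57 (4.33 ± 0.337). Each of the 3 held 4 footprints of both libraries, more than any other region outside a promoter except that in intron 1 of Slc22a13. In the first of them, footprint bases cover the AP-1 word TGAGTCA.

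The libraries differed in how much weak signal they listed around Slc22a12. Replicate 1 had 17 peaks in its window that touched no peak of replicate 2, with signals of 0.256 to 0.628, and replicate 2 had 1. Bases listed at an FDR of 0.05 or less numbered 8525 in replicate 1 and 3555 in replicate 2. The shared regions did not follow, since 4 of 10 were higher in replicate 1.

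Slc22a13 encodes OAT10, an apical carrier of urate and nicotinate, at chr9:119192974-119209098 on the minus strand, within the annotated body of Slc22a14. No shared region lay at its start. Each library had a weak peak there, at 0.422 in replicate 1 and 0.450 in replicate 2, and these did not overlap. The lowest FDR in the promoter window was 0.0345 over 32 listed bases in replicate 1 and 0.0118 over 197 in replicate 2. The strongest region lay in intron 1, 1598 bases from the start, at chr9:119207061-119207500. It had 5.13 in replicate 1 and 2.08 in replicate 2 (3.61 ± 2.16), and held 5 footprints of both libraries, the highest number in any region of the 9 genes. Beside it, chr9:119206681-119207060 had 1.87 and 1.25 (1.56 ± 0.437) and no footprint in either library. Upstream, chr9:119215421-119215640 had 2.71 and 1.96 (2.34 ± 0.532), with an HNF1 match in one of its 3 shared footprints. The other upstream region, chr9:119214681-119214880, had 1.45 and 1.33. A window of 2000 bases on each side of the start reached the intron 1 region of Slc22a13 and the region of Slc22a8 at its second start, and by it all 9 genes counted as open. Nearer to the start of Slc22a14 were 3 regions, of which chr9:119198941-119199740 lay in intron 1 and the others beyond the 3′ end. The strongest was chr9:119192641-119192920 with 3.02 ± 0.710.

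Slc17a3 encodes NPT4, an apical exporter of urate and other organic anions, at chr13:23839434-23860716 on the plus strand. Its promoter region chr13:23839381-23839660 had 3.34 in replicate 1 and 1.63 in replicate 2 (2.48 ± 1.21), a 2.05-fold difference and the widest among the promoters. The region held 2 footprints of both libraries. The second, chr13:23839540-23839567, lies in the 5′ UTR of exon 1 and covers the HNF1 match attaatgattaat. Upstream, chr13:23834901-23835140 had 1.46 and 1.02 (1.24 ± 0.310) and chr13:23833081-23833360 had 0.670 and 0.967 (0.818 ± 0.210). No shared region lay within the gene past exon 1. Downstream, 5 regions were nearer to the start of Slc17a1, which encodes the related carrier NPT1, and their means reached 2.54 ± 1.07 at chr13:23868861-23869160.

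Slc22a2 encodes OCT2, the basolateral carrier that takes up organic cations such as metformin, at chr17:12584132-12628488 on the plus strand. Its promoter region chr17:12584021-12584320 had 1.98 in replicate 1 and 1.79 in replicate 2 (1.89 ± 0.136). Footprints were called there in each library, 2 and 1, but none overlapped. This gene is the longest of the 9, at 44357 bases, and had 2 other shared regions. Intron 1 held chr17:12585556-12585680, with 0.661 in replicate 1 and 0.800 in replicate 2, and intron 4 held chr17:12607341-12607540, with 0.752 and 0.459. The intron 4 region, at a mean of 0.605, was the weakest outside promoters over the 9 genes, and neither of the 2 was in the shorter peak list of replicate 2. Replicate 1 had 4 more peaks in the window that replicate 2 lacked, with signals of 0.405 to 1.37, so the highest of them exceeded both regions.

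Slc47a1 encodes MATE1, the apical exporter that exchanges organic cations for protons, at chr11:61343401-61378345 on the minus strand. Its promoter region chr11:61378021-61378240 had 2.34 in replicate 1 and 3.07 in replicate 2 (2.70 ± 0.515). It held 3 footprints of both libraries, and 2 of them cover the SP word GGGCGG, as printed above. Over the word at chr11:61378114-61378119 both libraries had a footprint, and over that at chr11:61378139-61378144 only replicate 1 did. A second region, chr11:61378761-61378960, had 1.57 and 0.934 (1.25 ± 0.451). All 3 regions in the introns were higher in replicate 1. In replicate 2 each lay below the promoter, while in replicate 1 the intron 5 region and the stronger of intron 12 lay above it. In intron 12, chr11:61354441-61354700 had 3.17 and 2.12 (2.64 ± 0.742) and chr11:61356681-61356880 had 2.22 and 1.17 (1.69 ± 0.741). In intron 5, chr11:61368661-61369040 had 3.65 and 1.34 (2.49 ± 1.63), the widest ratio of all regions at 2.72-fold. Near exon 15, a region at chr11:61349441-61349640 with 4.22 ± 0.371 was nearer to the start of Slc47a2, its neighbour in the family.

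Slc22a5 encodes OCTN2, the sodium-coupled carrier that recovers carnitine from the urine and brings it into most tissues, at chr11:53864542-53891660 on the minus strand. Its promoter region chr11:53891801-53892060 lies wholly upstream, 141 bases from the GENCODE start, and had 22.6 in replicate 1 and 22.8 in replicate 2 (22.7 ± 0.181). It ranked 93 among 13974 open promoters. Alone among the 9 genes it was not CpG-poor, with a CpG ratio of 0.769 and a GC content of 65.8%. The 4 footprints of both libraries cover 152 of its 260 bases. Because it starts 141 bases away, a window of 100 bases on each side of the start misses it. Intron 1 held chr11:53889041-53889560, with 4.49 in replicate 1 and 1.99 in replicate 2 (3.24 ± 1.77), and 3 shared footprints. Upstream regions chr11:53899061-53899320 and chr11:53893101-53893340 had 1.98 ± 0.628 and 1.69 ± 0.0252. The strongest of these other regions reached 0.143 of the promoter mean, against 3.47 times for Slc22a12.

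Over the 9 genes 44 shared regions were assigned, 11 at promoters and 33 elsewhere, and 11 more in the windows went to other genes (5 to Slc17a1, 3 to Slc22a14 and 1 each to Slc47a2, Crip3 and Gm12216). The 33 had a median signal of 1.69 (range 0.605 to 4.76). It was 0.911 over all regions outside promoters, an unlike set that also holds regions in no gene window. At least 3 regions outside promoters lay in the own window of 6 of the 9 genes, beside 26.7% of all genes. The median was 3 against 1 over all genes. It was also 3 over the 8 proximal tubule markers and over the 36 other transporter genes described below. Regions stronger than the open promoter occurred at 2 of the 7 open genes, Slc22a6 and Slc22a12, beside 18.6% of all open genes and 27.9% of CpG-poor ones. Of the 44 regions, 26 were also in the shorter peak list of both libraries, beside 67.9% of all shared regions.

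Footprints found in both libraries lay in 29 of the 44 regions (65.9%), beside 66.1% of all shared regions. At promoters these were 7 of 11, beside 76.3%, and elsewhere 22 of 33, beside 63.1%. Regions with more signal held one more often. Of 31 regions with a mean signal of 1 or more, 23 held one (74.2%, beside 91%). Between 1 and 4 there were 27, of which 19 did (70.4%, beside 88.5%), and of 13 below 1, 6 did (46.2%, beside 39.1%). Regions without one despite a signal over 2 were the intron 5 region of Slc47a1 and the region upstream of Slc22a6. There were 61 such footprints in all.

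Regions of these genes were mostly higher in replicate 1. That held for 30 of 44 (68.2%), beside 50.6% of all shared regions, and for 25 of the 33 outside promoters. On the log2 scale, replicate 1 over replicate 2 had a median of 0.38, with a range of −0.85 to 1.44. All regions of Slc22a8 (3 of 3) and Slc22a13 (5 of 5) and 6 of 7 of Slc22a6 were higher in replicate 1, while Slc22a7 (1 of 4) and Slc22a12 (4 of 10) were not. Promoters of the proximal tubule markers were split, with 4 of 8 higher in replicate 1, and their regions outside promoters were not compared. The open promoters of the transporter genes were split too. By the strongest promoter region, Slc22a6, Slc22a7, Slc17a3 and Slc22a2 were higher in replicate 1, and Slc22a12, Slc47a1 and Slc22a5 in replicate 2. More than 2-fold apart were 4 of 44 regions, beside 11.9% of all, each higher in replicate 1. They lay at the promoter of Slc17a3, in intron 1 of Slc22a13, in intron 5 of Slc47a1 and in intron 1 of Slc22a5. Regions of 1 gene are not independent of each other, so this shift carries no test.

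**Figure D4:**
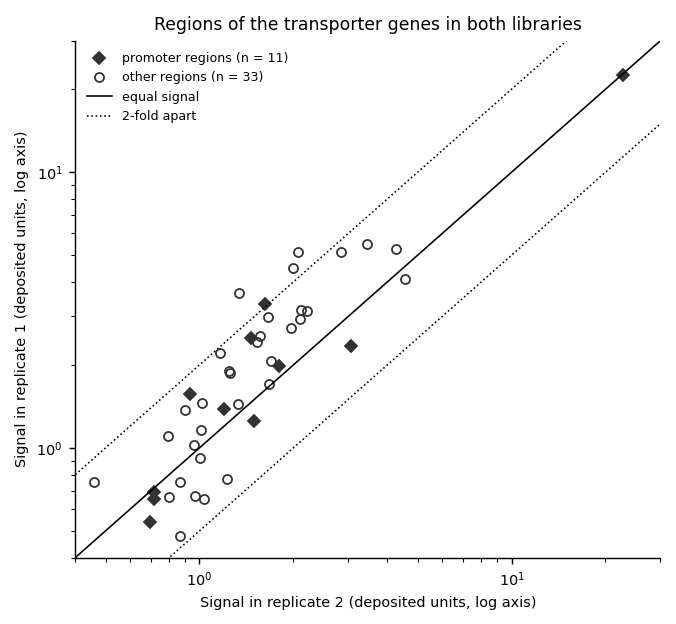
Signal of the 44 regions in replicate 1 against replicate 2 (deposited units, log axes), with diamonds for the 11 promoter regions and circles for the 33 others. The solid line marks equal signal and the dotted lines a 2-fold difference. Most circles lie above the solid line, 4 regions lie past the upper dotted line, and the Slc22a5 promoter, at the top right, lies on the solid line.

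Consensus words of 15 transcription factor families were searched on both strands. The HNF1 word was GTTAAT and ATTAAC with 1 base between (2 mismatches allowed), DR1 a repeat of AGGTCA with 1 base between (2 mismatches), and NF1 a TGGCA and TGCCA pair with 4 bases between (1 mismatch). Others allowed none. They were HNF4 CAAAGTCCA, ERR TCAAGGTCA, CRE TGACGTCA, ETS CCGGAA, SP GGGCGG, NF-Y CCAAT, TEAD ACATTCC, FOX TGTTTAC, AP-1 TGANTCA, STAT TTCNNNGAA, CTCF (CCA, 2 bases, AGG, 1 base, GGC) and GR (G, 1 base, ACA, 3 bases, TGT, 1 base, C). HNF4 and DR1 words resemble each other, as do AP-1 and CRE, and DR1 and ERR share letters. Counts were compared over the 300 bases centred on each region.

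An HNF1 match was held by 4 of the 44 regions (9.09%, beside 4.45% of all shared regions). HNF1 factors are known regulators of proximal tubule transport genes. The 4 lay in the Slc17a3 promoter, upstream of Slc22a13, in intron 5 of Slc47a1 and in the last exon of Slc22a8, and the first 2 were in shared footprints. DR1, a word of HNF4 and other nuclear receptors, was held by 6 regions (13.6%, beside 7.23%), and the exact HNF4 word by 1 (2.27%, beside 1.64%). All HNF1 and DR1 matches used the full allowance of mismatches, and with 1 mismatch fewer none was left. In the 300 bases from 250 before to 50 after the most 5′ start, none of the 9 genes held an HNF1, HNF4 or DR1 word, which were found in 1.24%, 0.423% and 3.34% of all genes.

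SP words were in 7 regions (15.9%, beside 21.2%) and NF-Y words in 10 (22.7%, beside 32.4%). ETS (11.4%, beside 9.72%) and AP-1 (11.4%, beside 9.61%) were in 5 regions each. STAT was in 3 (6.82%, beside 9.89%), and TEAD, FOX, GR and ERR in 1 region each (2.27%, beside 6.13%, 4.44%, 0.791% and 0.915%). No region held a CTCF (4.81% of all), NF1 (2.26%) or CRE (0.882%) word. Over the full regions there were 55 matches, of which 11 lay in the joined span of a footprint called in both. Of these, 6 were covered by a footprint of each library and 5 by that of 1 library. With 44 regions of 9 genes, differences of a few regions carry no test, and a match is no evidence of binding.

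**Figure D5:**
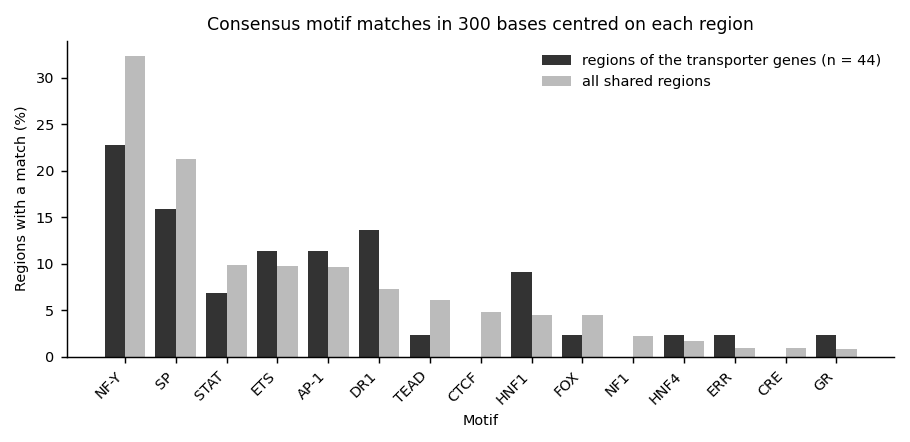
Share of regions (%) with a consensus word in their central 300 bases, for the 44 regions of the transporter genes (dark bars) and all shared regions (light bars), in order of the latter. HNF1 and DR1 words are at 9.09% and 13.6% of the transporter regions, beside 4.45% and 7.23% of all. These are 4 and 6 regions, and no match was left with 1 mismatch fewer. SP, NF-Y, STAT, TEAD, FOX, CTCF, NF1 and CRE words are at lower shares than in all regions.

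The same call was made for 36 other genes of the transport pathway. Promoters of 25 were open (69.4%), beside 64.2% of all genes, with a median signal of 2.23. Roles differed in their counts. Of 8 other organic anion transporters 2 were open, Slc22a19 (0.986 ± 0.558) and Slc22a26 (0.303 ± 0.0628), with no shared region at the starts of Slc22a20 and Slc22a22. Of 6 other organic cation and carnitine transporters 5 were open, led by Slc22a4 (5.85 ± 0.329), which encodes the ergothioneine carrier OCTN1, and Slc22a16 was not. Of 4 other SLC22 genes 3 were open, led by Slc22a18 (3.15 ± 1.36) and Slc22a23 (2.30 ± 0.548), and Slc22a14 was not. Slc17a5 (5.85 ± 1.29), which encodes the lysosomal sialic acid exporter sialin, and Slc17a1 (2.23 ± 1.21) led 4 open genes of the 5 in the MATE and SLC17 group, and Slc47a2 was not open.

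Of 6 organic anion transporting polypeptides 4 were open, with Slco2a1 (4.13 ± 0.310), a prostaglandin carrier, and Slco3a1 (3.30 ± 0.0392) highest, and Slco1a1 and Slco1a4 not open. All 5 ABC efflux pumps were open, led by the apical anion pumps encoded by Abcc4 (6.09 ± 0.371) and Abcc2 (3.25 ± 0.251). Both partners were open. Pdzk1, a scaffold of apical transporters, had 3.80 ± 0.0225, and Slc13a3, which supplies the dicarboxylate that OAT1 and OAT3 exchange, had 1.27 ± 0.430. No gene of these groups reached the signal of Slc22a5.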

How the data were processed

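DNase-seq was made on 2 mouse kidney libraries of 1 group. The authors deposited 2 peak lists, FDR intervals and footprints per library, all on mm10 (GRCm38). Each came from that library's own filtered alignments with no pooling, per the file headers. The aligner and callers were not given in the sources used here. Column 7 of the peak lists is the signal deposited by the authors, and the longer list was used. The deposited FDR file gives q-values up to 0.05, and the footprint file a constant 0.01, a q-value or p-value level and no value per site. Whole steps were counted within 0.05 of a step. Were a step 1 tag, depth would be 120.9 M and 119.9 M tags (M, mega) in replicates 1 and 2, an inference from the values. Intervals for counting error were not computed, since the deposited lists give no counts.

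From these files, peaks of both libraries that overlapped by at least 1 base were joined into shared regions with the highest signal of each library. Footprints were joined likewise, and a motif match counted as covered where a footprint spanned 50% of it or more. Promoter windows were 500 bases on each side of any GENCODE M21 start. Other regions within the gene body and 10 kb went to the protein-coding gene with the nearest start, measured from the region's edge. The CpG ratio was taken over the 500 bases on each side of the most 5′ start. Sequences and curated starts came from NCBI RefSeq for GRCm38.p6. Its promoter table held 7 of the 9 genes, without Slc22a7 and Slc47a1. Printed promoter sequences hold at most 30 bases of an annotated UTR. Exon numbers follow the first-numbered GENCODE transcript of each gene.

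The genes, lists and motifs were chosen with earlier results of these data known. Genes named were the 9 transporters, per role the 2 listed genes with the highest promoter signal and up to 2 not open, and any gene that took a region in a window. A gene that this rule would name is not reported here. For each of the 9, the promoter region and the strongest other region were to be described. Further regions are given for depth. Python 3.11.15, numpy 2.4.6, pandas 2.3.3, pysam 0.24.0 and matplotlib 3.10.9 were used. The functions for shared regions, window overlap and exact motif words were tested on simulated data. Assignment to the nearest start was not tested in this way. Alternatives covered the peak list, each library alone, the promoter window, the starts used, the overlap, the flank, the assignment and the motif settings.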

Additional observations from a re-analysis of the deposited data

How the results depend on the processing

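The count of open promoters among the 9 genes stayed between 6 and 9 under all alternatives run. It was 8 with either library alone, where a weak peak opened Slc22a13, and 6 with the shorter peak list, which lacks Slc22a6, or with a window of 100 bases, which misses Slc22a5. It was 9 with a window of 2000 bases, which reaches Slc22a8 and Slc22a13, and 8 with curated RefSeq starts added after the data were seen. The median promoter signal, 1.98, was 2.23 with the shorter list and with RefSeq starts added, 2.48 with a window of 2000 bases, and 1.56 to 2.16 with either library left out. Regions outside promoters numbered 33, but 20 with the shorter list, 16 in the gene body alone, 52 with a flank of 50 kb, and 34 to 59 with either library left out. Regions with a footprint numbered 29, but 5 where footprints had to share both ends, and 41 to 58 in a single library, where nothing had to be shared. Of the values for single genes and motifs, 87 stayed within 1 SD of the 2 libraries or, for counts, within 1.5 times, and 4 did not, all motif counts (HNF1 and DR1 with 1 mismatch fewer, ERR and AP-1 in 300 bases). Neither number holds promoters lost under an alternative, such as Slc22a6 with the shorter list and Slc22a5 with 100 bases. Some of the 87 could not have moved. Words that allowed no mismatch stay the same with 1 fewer, as does a promoter signal read from the same region. A single library of 2 always lies within 1 SD of their mean, so for promoters with a library left out this says nothing of stability, and Slc17a3 ranged from 1.63 to 3.34. The 36 other transporter genes had 25 to 28 open with either library left out, and all protein-coding genes 14306 to 14422. No paired analysis was possible because there is 1 group and no comparison between groups. Peaks of 1 library alone in these windows, 33 in replicate 1 and 6 in replicate 2, had a median signal of 0.450 and reached 1.62.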
